A study of Mus musculus with 2 samples.

Results

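The Zfp217 locus of mouse megakaryocyte progenitors held 37 open regions, of 80938 in the genome, and 34 of them lay more than 1 kb from any GENCODE start site of a protein-coding gene. Zfp217 (ENSMUSG00000052056.14) lies on the minus strand at chr2:170108643-170148103 of mm10. The locus was taken as the gene body and 100 kb on each side of its 5′ end, chr2:170048103-170248103, which contains the whole gene. A region was called a promoter region when its strongest summit lay within 1 kb of such a start site, which gave 3 promoter regions and 34 distal regions. The locus was chosen by its number of distal regions and their signal in the conservative list and the own lists of the libraries, so these values are descriptions without a test.

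Zfp217 encodes a nuclear protein with C2H2 zinc fingers. Its human counterpart, ZNF217, binds DNA and recruits corepressor complexes that contain CoREST, the histone demethylase LSD1, CtBP and histone deacetylases, and its gene is often amplified in breast cancer. In mouse embryonic stem cells the protein was linked to the RNA methyltransferase Mettl3. Open regions far from a promoter often hold enhancers, although openness alone does not show which gene a region serves.

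Accessibility was measured by ATAC-seq, which marks DNA that a transposase can reach. The cells were primary megakaryocyte progenitors, the precursors of platelet-forming cells, from adult male C57BL/6J mice of 5 to 6 weeks. All samples formed 1 group of 2 libraries, replicates 1 and 2, each from 50000 cells, with no treatment, mutant or other cell type. The labels give both libraries 1 donor code and separate biosample codes, and do not say whether different animals were used, so the spread between replicates may be technical. A code in the labels, CFU-M, was not interpreted.

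Signal is the authors' own value per peak, with no scaling between libraries stated, and the depth of each library is unknown. The conservative list, made by the authors from both libraries with an irreproducible discovery rate (IDR) threshold, supplied the regions. Each replicate's own IDR-thresholded list supplied its values, with 61735 regions in replicate 1 and 60098 in replicate 2. Of 11 megakaryocyte marker genes, 8 had a promoter peak in the conservative list, against 62.1% of all protein-coding genes. In the own lists 6 of 11 had one in replicate 1 (background 58.9%) and 6 in replicate 2 (58.2%), so their share was not above the background there. In the conservative list 18 of 33 marker genes of other blood and endothelial cells had one, a share below the 62.1% of all genes. They were 5 of 6 erythroid, 5 of 6 granulocyte, 3 of 5 monocyte and macrophage and 2 of 4 mast cell and basophil genes. The rest were 2 of 4 B cell, 1 of 4 endothelial and 0 of 4 T and NK cell genes. In each own list granulocyte genes fell to 4 and mast cell and basophil genes to 1. Endothelial genes rose to 2 in replicate 2, and the other counts stayed. The part of other cells in the locus was not tested.

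The sequences under the 4 strongest distal summits are shown, with those before the 2 start sites that the RefSeq promoter table gives for Zfp217. These 4 were picked by signal, and most distal regions of the locus were weak for distal regions. The windows of the distal regions reach 75 bp each side of the summit, on the plus strand of GRCm38.p6, the assembly of mm10. They lie at chr2:170184651-170184801, chr2:170101304-170101454, chr2:170055531-170055681 and chr2:170238070-170238220. Capitals mark every match to 13 motifs spelled out with the motif results.

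Region 36.6 kb upstream: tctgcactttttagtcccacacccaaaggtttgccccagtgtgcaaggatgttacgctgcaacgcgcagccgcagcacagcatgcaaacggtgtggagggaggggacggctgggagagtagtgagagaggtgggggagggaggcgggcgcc
Region 46.7 kb downstream: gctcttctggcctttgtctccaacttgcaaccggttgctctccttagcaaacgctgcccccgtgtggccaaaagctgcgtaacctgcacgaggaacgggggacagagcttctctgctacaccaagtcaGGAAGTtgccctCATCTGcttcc
Region 92.5 kb downstream: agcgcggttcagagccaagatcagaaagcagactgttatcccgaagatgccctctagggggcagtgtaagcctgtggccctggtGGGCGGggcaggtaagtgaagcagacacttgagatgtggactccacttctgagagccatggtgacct
Region 90.0 kb upstream: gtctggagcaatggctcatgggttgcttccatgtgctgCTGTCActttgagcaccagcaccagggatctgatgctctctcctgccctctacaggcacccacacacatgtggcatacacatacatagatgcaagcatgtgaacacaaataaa

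The strongest window held none of the 13 motifs and was the richest of the 4 in bases G and C, at 62.3% with 8 CpG sites. The window 90.0 kb upstream had 50.3% and no CpG. Both promoters of that table are given as the 250 bases before the start site, on the minus strand, at chr2:170142676-170142925 and chr2:170131221-170131470.

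Promoter without a region: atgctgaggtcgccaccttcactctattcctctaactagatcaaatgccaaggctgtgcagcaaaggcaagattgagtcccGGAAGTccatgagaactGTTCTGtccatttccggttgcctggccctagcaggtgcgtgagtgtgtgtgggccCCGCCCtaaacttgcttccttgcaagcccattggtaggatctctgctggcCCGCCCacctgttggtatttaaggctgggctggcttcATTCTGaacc
Promoter with a region: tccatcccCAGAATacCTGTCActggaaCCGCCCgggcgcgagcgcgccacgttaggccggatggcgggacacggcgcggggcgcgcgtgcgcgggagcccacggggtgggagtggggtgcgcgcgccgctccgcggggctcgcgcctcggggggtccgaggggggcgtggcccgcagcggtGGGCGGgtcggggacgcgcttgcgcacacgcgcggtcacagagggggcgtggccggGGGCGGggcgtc

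The promoter at chr2:170131221-170131470 is a CpG-rich stretch, 80.0% G and C with 43 CpG sites, and a promoter region covered it. The other has 54.4% G and C with 6 CpG sites, and no open region had its summit within 5 kb of that start site. Over all 32851 promoters of the table the medians were 52.4% and 6 sites. Both held GGGCGG or its reverse complement, which 32.7% of these promoters hold, and both held CAGAAT or CAGAAC, which 26.6% hold.

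The promoters of Zfp217 were open but weak. GENCODE M21 gives the gene 5 transcripts with 4 start sites, and 3 of these had a region with its summit 216 to 324 bp away. Of the 3, those at the 5′ end and 14.2 kb inside the gene belong only to processed transcripts, not to protein-coding ones. The start site 16.9 kb inside also begins a protein-coding transcript. At the 5′ end itself the signal was 4.46 in the conservative list and 4.25 in replicate 1, and the own list of replicate 2 held no region there. The region 14.5 kb into the gene had a signal of 4.05, with 3.80 in replicate 1 and 4.34 in replicate 2 (4.07 ± 0.376, SD, n = 2). The region 16.6 kb into the gene, at the GC-rich promoter shown above, had 3.64, with 3.70 in replicate 1 and 3.95 in replicate 2 (3.83 ± 0.177, SD, n = 2). All 3 signals were below the 25th percentile of 6.76 over 17457 promoter regions, whose median was 9.66. By its strongest promoter signal, that at the 5′ end, Zfp217 stood 13423rd of 13618 genes with a promoter peak, and 1.43% of these genes were lower. In bulk cells a weak signal does not tell fewer open cells from less opening per cell.

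The 4th GENCODE start site, 5.43 kb inside the gene, begins a protein-coding transcript and had its nearest summit 5209 bp away. RefSeq models of the gene have 11 start sites, and 2 distal regions had their summits within 1 kb of one of them. The summit of one lay 40 bp from a start site 3.57 kb upstream of the GENCODE 5′ end, and that region had a signal of 5.77, with 5.29 in replicate 1 and 6.11 in replicate 2 (5.70 ± 0.585, SD, n = 2). Its -log10 q was 87.2, against 27.4 to 42.1 in the 3 promoter regions. The other, 19.3 kb inside the gene and 972 bp from a RefSeq start site, had a signal of 5.36, with 5.08 in replicate 1 and 5.43 in replicate 2 (5.26 ± 0.247, SD, n = 2). Under the RefSeq models both would count as promoter regions, and both were above the 3 GENCODE promoter regions in each replicate that listed these. The region at the GENCODE 5′ end had no RefSeq start site of Zfp217 within 1 kb and would count as distal. The promoter rank of Zfp217 given above rests on that region.

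Most distal regions of the locus were stronger than the GENCODE promoters of Zfp217. Of 34 distal regions 28 had a higher signal than the highest of these promoter regions, and 2 were below the lowest. This depends on the annotation. Under the RefSeq models the region 3.61 kb upstream, with a signal of 5.77, would be the highest promoter region, and the median of the 34 was 5.63. The strongest lay 36.6 kb upstream, spanned 1047 bp with 2 summits and had a signal of 14.1, with 12.8 in replicate 1 and 13.9 in replicate 2 (13.4 ± 0.713, SD, n = 2). Its level exceeded 88.3% of all distal regions, and it was the strongest region of the locus in both replicates.

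The next in order lay on the downstream side. The region 46.7 kb from the 5′ end, past the end of the gene, had a signal of 11.8, with 10.5 in replicate 1 and 11.8 in replicate 2 (11.2 ± 0.973, SD, n = 2). The region 92.5 kb from the 5′ end, in an intron of the neighbouring gene Tshz2, had 11.5, with 10.3 in replicate 1 and 11.4 in replicate 2 (10.8 ± 0.815, SD, n = 2). These 2 neighbours in the order overlapped between replicates.

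The remaining strong regions were upstream. The region 90.0 kb upstream had a signal of 9.91, with 8.90 in replicate 1 and 9.64 in replicate 2 (9.27 ± 0.521, SD, n = 2). The region 44.9 kb upstream lay in an exon of the long noncoding RNA gene Gm17619 and had 9.09, with 8.39 in replicate 1 and 8.86 in replicate 2 (8.62 ± 0.329, SD, n = 2). The region 96.2 kb upstream had 8.87, with 8.47 in replicate 1 and 8.28 in replicate 2 (8.37 ± 0.131, SD, n = 2). The last 2 overlapped between replicates, whereas both values of the strongest region lay above every other value at the locus.

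**Figure D1:**
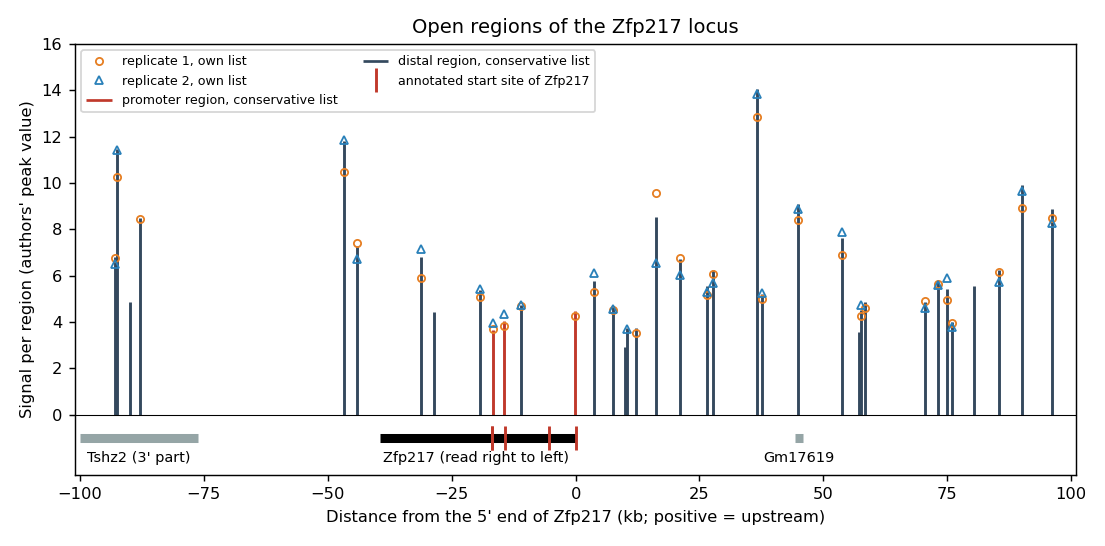
Signal of the 37 open regions (vertical axis, authors' value) against distance from the 5′ end of Zfp217 in kb, upstream positive; lines give the conservative list (red promoter, dark distal), circles replicate 1 and triangles replicate 2. The 3 promoter regions stay between 3.64 and 4.46, and the strongest distal region, 36.6 kb upstream, reaches 14.1.

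As a whole the distal regions were weak for distal regions. Their median signal was 5.63 (range 2.90 to 14.1), against 8.74 over all 63481 distal regions. Of the 34 distal regions 21 were below the 25th percentile of all (6.66), 6 were at or above the median and 2 at or above the 75th percentile (11.5). In the own list of replicate 1 the median was 6.00, against 8.92 over all distal regions. In that of replicate 2 it was 5.96, against 9.48. Their -log10 q was not low, with a median of 51.1 against 47.5 over all distal regions, and their median width was 410 bp against 419 bp.

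The low level was shared by other genes with many distal regions. Among 5371 genes with 1 to 5 distal regions within 100 kb of the 5′ end the median of the genes' median distal signal was 9.73. It was 9.03, 8.26, 7.69 and 7.30 in the next 4 classes of 5, and 6.38 among the 69 genes with 26 to 34 regions, Zfp217 included. Of these 69 genes 4 had a lower median than Zfp217. Of the 59 of them with a promoter peak 6 had a lower promoter signal, the class median being 7.92. The median -log10 q stayed between 47.4 and 49.2 over all classes. Neighbouring genes share regions, so these genes are not independent.

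**Figure D2:**
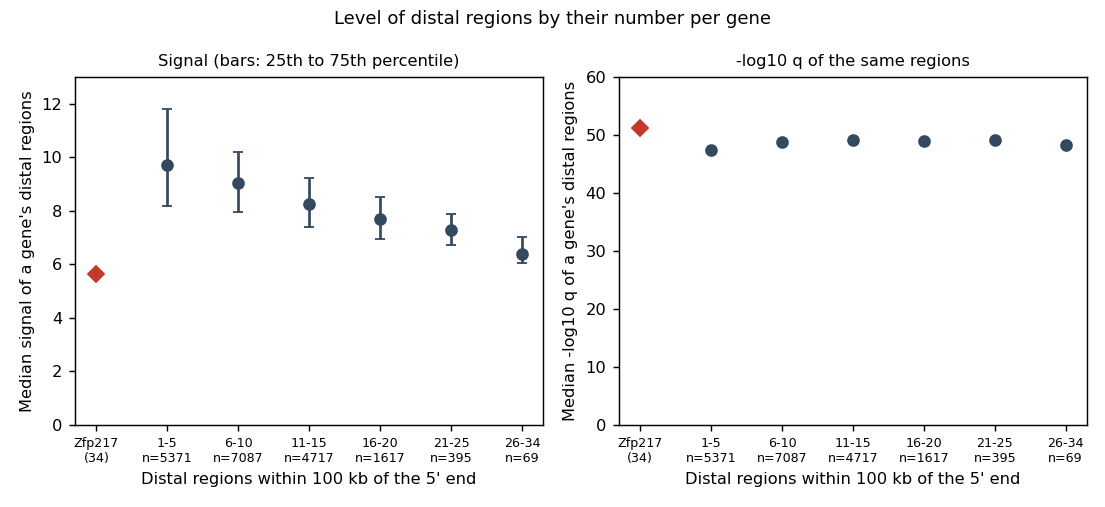
Median signal (left, bars from the 25th to the 75th percentile over genes) and median -log10 q (right) of a gene's distal regions, for Zfp217 (diamond) and for genes classed by their number of distal regions. Zfp217 lies at 5.63, below the class of 26 to 34 regions at 6.38, while its -log10 q of 51.1 lies above that of every class.

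In the conservative list the number of distal regions near Zfp217 was the highest of all genes, shared with 1 other, when each was given the same window. This equal window was chosen after seeing the data. In other lists and settings the rank ran from 1 to 16, and it was 4989 with the stronger 50% of regions. Within 100 kb of the 5′ end Zfp217 had 34 distal regions, a number shared with Notch2 and with no other of 21938 protein-coding genes (2 genes, 0.00912%), and the median gene had 8. In the own lists Zfp217 had 28 in replicate 1 and 26 in replicate 2 (27 ± 1.41, SD, n = 2), alone at the first rank in each, where the median gene had 5. Notch2, which encodes a Notch receptor, had 25 and 21 in these lists, and its promoter signal was 12.6.

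When long gene bodies were added to the window, Zfp217 ranked 30th, tied with 5 other genes. The 5 leading genes were Gm20388 with 280, Fgfr2 with 113, Pde4d with 72, Gm37240 with 51 and Foxp1 with 50 distal regions, and these genes span 597 to 4435 kb. Within 100 kb of their own 5′ ends they had 16, 8, 11, 7 and 9. Per 100 kb of window Zfp217 had 17.0 distal regions, the first rank, against a median of 3.95.

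**Figure D3:**
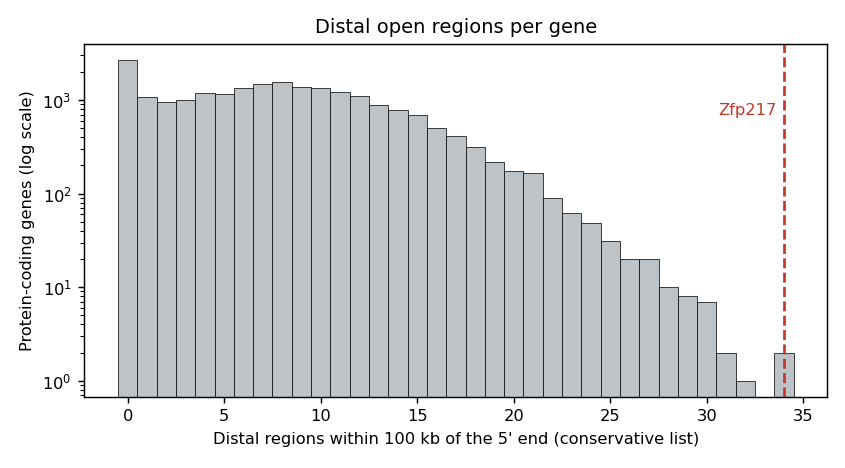
Number of protein-coding genes (log scale) by their distal regions within 100 kb of the 5′ end in the conservative list; the dashed line marks Zfp217. Zfp217 and Notch2 share the highest count of 34, and the median gene has 8.

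The regions were spread unevenly over the 200 kb. There were 24 upstream, 7 in the gene body (4 of them distal) and 6 beyond the 3′ end, all together covering 17.6 kb, or 8.78% of the window. By annotation 25 of the distal regions were intergenic, 7 intronic, 1 in the exon of Gm17619 and 1 in coding sequence of Zfp217. Inside Tshz2, which encodes a teashirt zinc finger protein, lay 4 of the intronic ones. The median distance between neighbouring summits was 3.40 kb, against 9.68 kb over all regions.

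A gap of 41.1 kb without a region lay between the regions 87.8 and 46.7 kb downstream of the 5′ end. When the locus was split at its 2 longest gaps, of 41.1 and 12.8 kb, 31 of 37 regions, all 3 promoters among them, formed a single block of 128 kb. It ran from 31.2 kb inside the gene to 96.2 kb upstream. The next longest gap, of 12.1 kb between the regions 58.4 and 70.5 kb upstream, was nearly as long and lay inside this block. The other blocks held 4 regions in Tshz2 and 2 past the end of Zfp217. Level differed along the locus: the median signal was 4.19 in the first 20 kb upstream, 6.25 from 20 to 40 kb, 4.86 from 40 to 60 kb, 5.14 from 60 to 80 kb and 7.56 from 80 to 100 kb. Beyond the 3′ end the median was 7.90 over 6 regions.

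Open regions continued past the limits of the locus on both sides. On the upstream side the last region inside, at 96.2 kb, had a signal of 8.87, and the first outside, at 105 kb, had 9.32. On the other side the values were 6.81 at 92.9 kb and 6.10 at 102 kb. For the start sites of GENCODE protein-coding genes, the promoter region farthest inside the 1 kb limit was 0.324 kb away and the nearest distal region 2.38 kb away. With other start sites some regions lay near the limit, namely the one 972 bp from a RefSeq start site and the Gm17619 region, 1.02 kb from the 5′ end of that noncoding gene. The weakest listed region had a signal of 2.90, and the strongest summit of the authors' ranked list that the conservative list left out had 4.16, with an IDR of 0.164.

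The neighbouring genes differed in their promoters. Bcas1, whose human counterpart is amplified in breast cancer, has its 5′ end 280 kb upstream of that of Zfp217. It had 22 distal regions and a promoter signal of 13.9, with 12.8 in replicate 1 and 12.9 in replicate 2. A further 19 regions lay between the locus and the Bcas1 5′ end, over 180 kb. Tshz2, 515 kb away on the other side by 5′ end, had 20 distal regions, 4 of them shared with Zfp217, and no promoter peak in any of the 3 lists. Which gene the distal regions serve was not measured.

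The genes most like Zfp217 were ranked by the Euclidean distance over 5 log2 values, namely distal regions in 3 lists and promoter signal in both own lists. The nearest were Hist1h4h, a histone gene (distance 0.49), Cebpb, a leucine zipper transcription factor gene (0.49), Celf5, an RNA-binding protein gene (0.51), Maml3, a Notch coactivator gene (0.52), and S1pr1, a sphingosine-1-phosphate receptor gene (0.53). These had 29, 26, 31, 39 and 27 distal regions in the gene body or within 100 kb. Maml3 spans 419 kb and had 15 within 100 kb of its 5′ end, with 12 in each own list. The other genes had the same counts in both windows. Their promoter signals in the conservative list were 5.47, 4.75, 5.45, 6.41 and 4.27.

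The own lists of the replicates held most of the locus. Replicate 1 listed 31 of 37 regions (83.8%, exact 95% binomial interval 68.0 to 93.8), against 73.4% of all conservative regions. Replicate 2 listed 28 (75.7%, 58.8 to 88.2), against 71.6%. Of the distal regions 28 were in replicate 1 (background 70.2%) and 26 in replicate 2 (background 68.3%). Of the 3 promoter regions 3 were in replicate 1 (background 85%) and 2 in replicate 2 (background 83.6%). The intervals cover counting error only, and both backgrounds for the whole locus lie inside them.

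Of the 37 regions 27 were in both own lists (background 63.9%), 4 in that of replicate 1 only, 1 in that of replicate 2 only and 5 in neither. The 5 in neither were distal and had signals of 2.90 to 5.54 in the conservative list. Among those of replicate 1 only were the region at the 5′ end and a Tshz2 intron region with a signal of 8.46 in replicate 1, 87.8 kb from the 5′ end. The longer pseudoreplicated lists, which split each library in silico, held all 37 in each replicate, and gave these 2 regions 3.82 and 6.90 in replicate 2. Both own lists held 25 of 34 distal regions of Zfp217 (73.5%), against 59.7% of all distal regions. At Ccr1, a chemokine receptor gene, the share was 60.7% of 28, and at Fli1, an ETS factor gene of megakaryocytes, 55.6% of 27. The own lists were among the values by which the locus was chosen, and Ccr1 and Fli1 were named after their values were seen. These shares are descriptions, and their difference was not tested.

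Signal at the locus was compared between the replicates. Over the 27 regions in both own lists the log2 ratio of replicate 1 over replicate 2 had a median of -0.07 (SD 0.17 over regions), against -0.08 (SD 0.19) over 52201 matched regions of the genome. The signal was higher in replicate 1 in 10 regions and higher in replicate 2 in 17. The ratio was lowest, at -0.27, in an intron of Zfp217 31.2 kb from the 5′ end, with 5.90 in replicate 1 and 7.13 in replicate 2. It was highest, at 0.55, in the region 16.2 kb upstream, with 9.57 in replicate 1 and 6.54 in replicate 2. This last region had the 4th highest signal of the locus in replicate 1. Over the 25 distal regions of both lists Spearman's rho was 0.93, a description of regions that share both libraries.

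**Figure D4:**
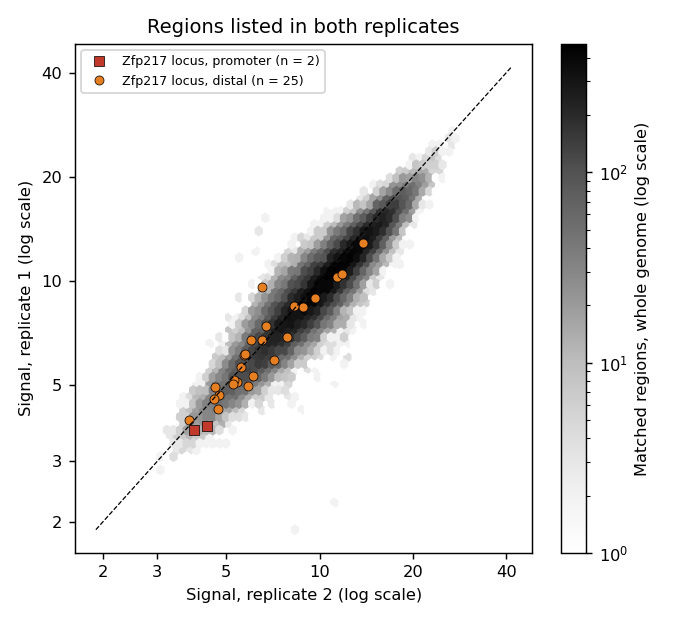
Signal in replicate 1 (vertical) against replicate 2 (horizontal), both on log scales, for the Zfp217 locus (25 distal regions as circles, 2 promoter regions as squares) and all 52201 matched regions (grey). The locus follows the diagonal, and the region 16.2 kb upstream, at 9.57 and 6.54, lies farthest above it.

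Motif letters were counted in the 34 distal windows of 151 bp, on both strands, beside all 63481 distal windows and 116232 windows centred 1 kb away that overlap no listed region. A match is a description of letters, not a binding site. AGATAA of GATA factors was in 4 windows (11.8%), against 13.8% of all distal windows and 8.42% of windows 1 kb away. GGAAGT of ETS factors was in 7 (20.6%), against 26.1% and 8.34%. TGTGGT of RUNX factors was in 2 (5.88%, exact 95% interval 0.720 to 19.7), against 22.5% and 11.7%. TGAGTCA of NFE2 and AP-1 was in 2 (5.88%), against 6.41% and 2.56%.

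At least 1 of these 4 motifs was in 15 windows (44.1%), against 54.5% of all distal windows and 28.1% of windows 1 kb away. None of the 34 windows held 2 or more of the 4 (interval 0 to 10.3), against 13.2% of all distal windows. The interval treats the windows as independent, which neighbours at 1 locus may not be, and the difference was not tested. CAGAAT and CAGAAC, letters reported as the core that human ZNF217 binds, were in 9 windows (26.5%, interval 12.9 to 44.4), against 18.8% both of all distal windows and of windows 1 kb away. GGGCGG of KLF and SP factors was in 5 (14.7%, interval 4.95 to 31.1), against 6.75% and 2.00%. These shares rest on few windows and moved with the window: with 100 bp each side of the summit RUNX letters were in 4 windows (11.8%, interval 3.30 to 27.5), against 26.2% of all distal windows. With 50 bp GATA letters were in 1 (2.94%), against 10.3%. Over all summits of a region they were in 23.5%. That setting searches more sequence where a region has several summits. Its share over all distal regions was not computed, so it cannot be set against the backgrounds above.

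Each of the other motifs was in 3 windows or fewer, and the shares of all distal windows are given in brackets. CCA, any 2 bases, AG, any 2 bases and GGC, for CTCF, was in 3 windows (background 13.6%), as was CAGATG of TAL1 (14.8%). TGACAG of MEIS was in 2 (13.8%), and TTGCNNCAA of CEBP (1.48%) and GAGGAAGT of PU.1 (7.63%), which contains GGAAGT, were in 1 each. GAAA, any 2 bases and GAAA, for IRF (2.27%), and TGC directly before TGAGTCA, for MAF with AP-1 (0.692%), were in 0 of 34 windows. With background shares this low few matches are to be expected in 34 windows. The median G and C content of the distal windows was 53.0%, against 50.3% over all distal windows and 45.0% at windows 1 kb away.

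**Figure D5:**
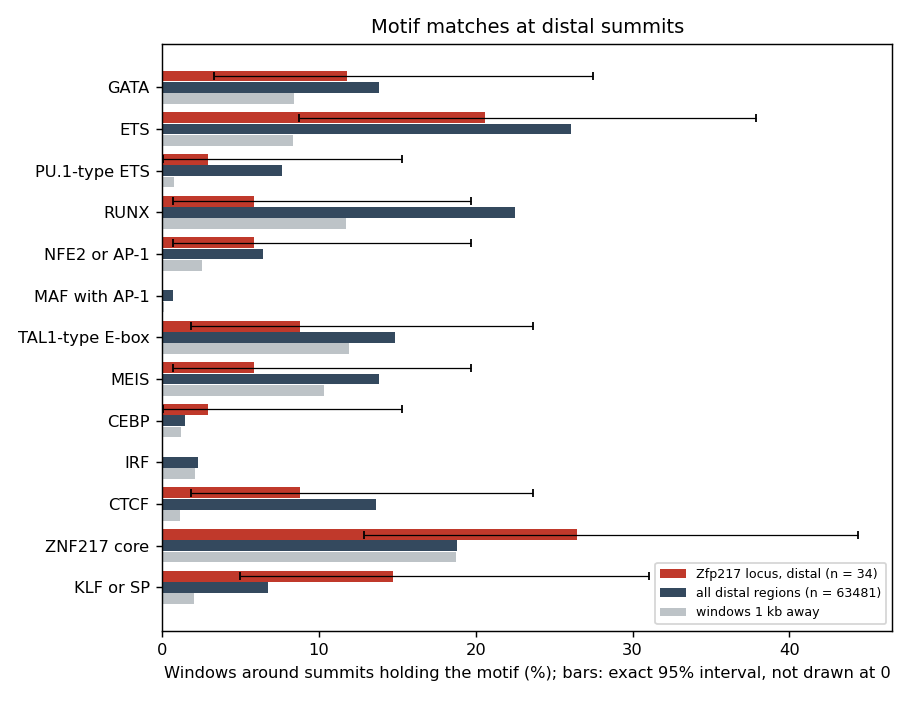
Share of windows holding each motif (horizontal, percent), for the 34 distal regions of Zfp217 with exact 95% intervals, all distal regions and windows 1 kb away. ETS letters are in 20.6% of the Zfp217 windows and in 26.1% of all distal windows, and most intervals are wide because they rest on 34 windows.

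The genes of the corepressor complexes in which human ZNF217 works had open promoters. Of 18 such genes 18 had a promoter peak in the conservative list (background 62.1%), 17 in replicate 1 (58.9%) and 18 in replicate 2 (58.2%). Against 4.46 at Zfp217 itself, their median promoter signal was 9.97, with the highest, 15.8, at Kdm1a, which encodes LSD1. Ehmt2, a histone methyltransferase gene, was lowest, with 4.11 in the conservative list, no peak in replicate 1 and 4.25 in replicate 2, and was the only one below Zfp217. Their median was 8 distal regions within 100 kb (range 2 to 24), the same as the median gene. Zfp516 had 24 and Hmg20b 21 within 100 kb, and Gse1, a long gene, had 15 there and 44 with its gene body.

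Of 11 genes reported in other cells as targets or partners of Zfp217 or ZNF217, 8 had a promoter peak in the conservative list (background 62.1%), 8 in replicate 1 (58.9%) and 6 in replicate 2 (58.2%). Mettl3 had a signal of 12.9 and Fto, the RNA demethylase gene, 13.6. Sox2 and Nanog, pluripotency factor genes, and Cdh1, the E-cadherin gene, had none in any of the 3 lists.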

How the data were processed

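Peak lists of 2 ATAC-seq libraries on mm10 were used. Signal was deposited by the authors as the peak caller's value per peak, and q-values were deposited as -log10 values. The authors' ranked list gives an IDR score per summit pair. Which aligner and caller were run is not given in the sources used here. Their settings could change which regions are listed. Overlapping peak intervals were joined to regions, which take the signal of the strongest. A conservative region was counted in an own list when 50% of either region was covered. Start sites were those of all transcripts of 21938 protein-coding genes in GENCODE M21 (93513 sites). A gene's promoter signal is its strongest summit within 1 kb. Sequences came from GRCm38.p6 and from RefSeq's promoter table on that assembly, where both Zfp217 entries matched. Python 3.11.15, numpy 2.4.6, pandas 2.3.3, scipy 1.17.1 and pysam 0.24.0 were used. No test was run, because the locus was chosen from these values and 1 group gives no contrast. The members, gene lists and motifs were chosen with earlier results of these data known. The text names Zfp217, its neighbours, the 5 genes most like it, up to 5 genes ranked above it, leading corepressor genes, the promoter regions and the 6 strongest distal regions. Notch2, Ccr1, Fli1 and Kdm1a, the linked genes and the regions with the lowest and highest replicate ratio were named after their values were seen. A marker gene of the chosen list is not reported here. Counting, merging and motif search recovered the known answers of simulated data.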

Additional observations from a re-analysis of the deposited data

How the results depend on the processing

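No paired analysis was possible because the study has 1 group. The counts at the locus kept within 1.5 times under the other lists, with 28 to 31 regions when a replicate was left out and 35 to 50 in the other lists of both libraries. With the stronger 50% of all regions there were 5 at the locus, 5 distal and 0 promoter. With 50 kb in place of 100 kb there were 21 regions, 18 of them distal. With start sites of protein-coding transcripts only, a setting chosen after seeing the data, there was 1 promoter region and 36 distal ones. The rank of Zfp217 by distal regions in the gene body or within 100 kb, 30, became 112 in the replicated list, 149 in the pseudoreplicated list, 18 to 19 when a replicate was left out, 249 with 50 kb, 12 with 200 kb, 5457 with the stronger 50% and 1 per 100 kb of window. In windows of equal size, also chosen after seeing the data, the rank of 1 became 2 in the IDR-thresholded list, 4 in the replicated list, 16 in the pseudoreplicated list, 12 with 50 kb, 5 with 200 kb, 2 with regions within 150 bp joined and 4989 with the stronger 50%. It was 1 in the own list of each replicate. The cause was not tested, other than that weak regions are left out by construction in the stronger 50%. The median distal signal of 5.63 was 5.49 as the mean over summits and 5.96 to 6.00 in the own lists. With 50 bp each side of the summit the shares of GATA, TAL1 and MEIS letters were 2.94% each, and those of NFE2 or AP-1 and of CEBP were 0%. With 100 bp the RUNX share was 11.8%. Over all summits of a region GATA and KLF or SP were at 23.5% each and MEIS at 11.8%, with no share over all distal regions computed for that setting. Of 115 alternatives 28 moved a value past its tolerance. The tolerance was 1.5 times for counts and ranks, the exact interval for motif shares, and the spread between replicates or regions for signals. A reversal of direction was not assessed. Regions missing from the own IDR-thresholded list of a replicate were still called in its longer pseudoreplicated list, which held all 37. Depth is unknown, and why the own list left them out was not tested.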

Other observations

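Of the 34 distal windows at the locus 3 were over 50% repeat-masked (8.82%), against 4.85% of all distal windows and 21.0% of windows 1 kb away. The authors' ranked list held 66 summits at the locus, 16 of them outside the conservative regions. The replicated list of both libraries held 50 regions there, 13 of them outside the conservative regions, and the pseudoreplicated list 45, with 8 outside.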
